A study of Homo sapiens with 6 samples.

Results

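The accessibility of 38 genes that repair platinum damage to DNA was examined in NCI-H1703, an established human cell line of lung squamous cell carcinoma. The 38 genes were chosen by name, out of 20037 protein-coding genes in the gene table. They comprised 12 genes of nucleotide excision repair, 10 of the Fanconi anaemia pathway, 10 of homologous recombination, 3 of mismatch repair and 3 of translesion synthesis. The comparison was between 3 libraries of cells with DLGAP1-AS2, a long non-coding RNA, silenced and 3 libraries of control cells. The labels name no other treatment, and none of the libraries is labelled as exposed to a platinum drug. The labels do not spell out how the RNA was silenced, how far its level fell, what the control cells received, or whether the 3 libraries of a group came from separate cultures.

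Platinum drugs bind purine bases and cross-link them, mostly within a strand and more rarely between strands. Intrastrand adducts are cut out by nucleotide excision repair, interstrand cross-links are unhooked by the Fanconi anaemia pathway and its nucleases, and the breaks that result are repaired by homologous recombination. Translesion polymerases copy across adducts that remain, and mismatch repair proteins recognise some adducts. ATAC-seq (assay for transposase-accessible chromatin with sequencing) marks open DNA by where a transposase can insert adapters, so it reports whether the promoters of these genes are open, and not how much RNA or protein they make.

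Each library was available as a list of called peaks, with 162115, 167966 and 121406 peaks in silenced replicates 1 to 3 and 170882, 91346 and 165674 in control replicates 1 to 3. The authors' peak height (pileup) is the number of fragments stacked at a peak, and their fold enrichment sets it against the local background. Height and fold enrichment together imply a local background at each peak. Its lowest value was 0.237 fragments in silenced replicate 3 and 0.369 to 0.464 in the other libraries. The median height of the strongest gene-end peaks was 16 in silenced replicate 3 and 30 to 37 in the others. Among all protein-coding genes, 65.1% to 70.3% had a gene-end peak, meaning a peak whose midpoint lay within 1 kb of either end of the gene. The cell identity was checked on marker genes. Of 6 squamous markers 1 (SOX2) had such a peak in each library, and of 5 epithelial markers 1 (KRT8), while TP63 had one in 4 libraries and KRT6A and KRT19 in none. The 3 mesenchymal markers and 2 of 3 adenocarcinoma markers had one in all 6 libraries, and 0 of 3 blood markers did. A bulk library cannot tell fewer cells with an open site from less opening in each cell.

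Promoter windows of 300 bases (250 before and 50 after a listed start) were available from RefSeq, build GRCh38.p14, for 37 of the 38 genes, 54 windows in all. FANCI had no entry. The E2F-type motif TTCCCGCC, read on either strand, is the site form bound by E2F factors, which drive genes of DNA replication and S phase. It stood in 15 of the 54 windows (27.8%), against 3.98% of 22199 protein-coding windows and 3.16% of all 35116 windows. Counted by gene, 12 of 37 repair genes (32.4%) held it, against 5.21% of protein-coding genes, and against 6.34% of genes with a promoter overlapped by a peak in all 6 libraries. The genes were BRIP1, XRCC2, XRCC3, RAD52 and RAD54L (5 of 10 in homologous recombination), FANCC, FANCD2 and FANCL (3 of 9 in the Fanconi pathway), XPC and DDB2 (2 of 12 in excision repair), MSH6 and REV3L. Among the further 43 repair genes with a promoter entry, 9 (20.9%) held it.

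In 7 of those genes the match lay within 50 bases of a listed start. These matches are shown because they fall at the start itself, inside a called peak in all 6 libraries. At DDB2 that peak was not the strongest gene-end peak in silenced replicate 3 and control replicate 1. Each is printed 5′ to 3′ on the gene's own strand, with the match in capitals. The match begins 3 bases before the listed start in FANCD2 and XRCC3, 1 base after it in BRIP1, 4 after in MSH6, 20 after in XRCC2, 26 after in DDB2 and 49 before in RAD54L.
FANCD2 (chr3:10026423-10026452, + strand): gcgtcgggcctGGCGGGAAagtcgaaaact
XRCC3 (chr14:103715436-103715465, - strand): aggagcaggacGGCGGGAAgaggagtgcgg
BRIP1 (chr17:61863509-61863538, - strand): agggggcgggaGGCGGGAAttcgtctcggg
MSH6 (chr2:47783138-47783167, + strand): tccccccagatTTCCCGCCagcaggagccg
XRCC2 (chr7:152676103-152676132, - strand): atggcgttggtGGCGGGAAagttgagtctc
DDB2 (chr11:47214989-47215018, + strand): tgggcatgtttGGCGGGAAgttggcttagc
RAD54L (chr1:46247628-46247657, + strand): gcgcagcactaTTCCCGCCtcttccttggg
The 12 genes held 14 distinct matches, 10 of them before the start, and 1 match, in DDB2, overlapped a GC box. A match is a run of letters and does not show that a factor was bound.

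The remaining motifs were searched in the same windows. The GC box GGGCGG, the binding form of Sp1, was in 70.4% of the windows of the repair genes and 56.3% of protein-coding windows. The cAMP response element TGACGTCA was in 9.26% against 2.26%, in 5 windows of 3 genes (PMS2, RAD51C and XRCC2). The ETS-type motif CCGGAAGT was in 9.26% against 5.34%, and the CCAAT box, searched as ATTGG, in 31.5% against 34.7%. The second E2F-type form TTTCGCGC and the NRF1-type motif were each in 2 windows (3.70%), against 0.712% and 1.5%. The TEAD-type motif CATTCC was in 13.0% against 12.2%. The AP-1-type motif TGANTCA was in 0 windows against 6.15%, and the YY1-type motif in 0 against 1.68%. All 10 motifs were searched on both strands. The windows of the repair genes had a median GC content of 64.3% and a CpG ratio (observed over the number their base composition gives) of 0.879, against 62.3% and 0.737 for protein-coding windows.

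**Figure D1:**
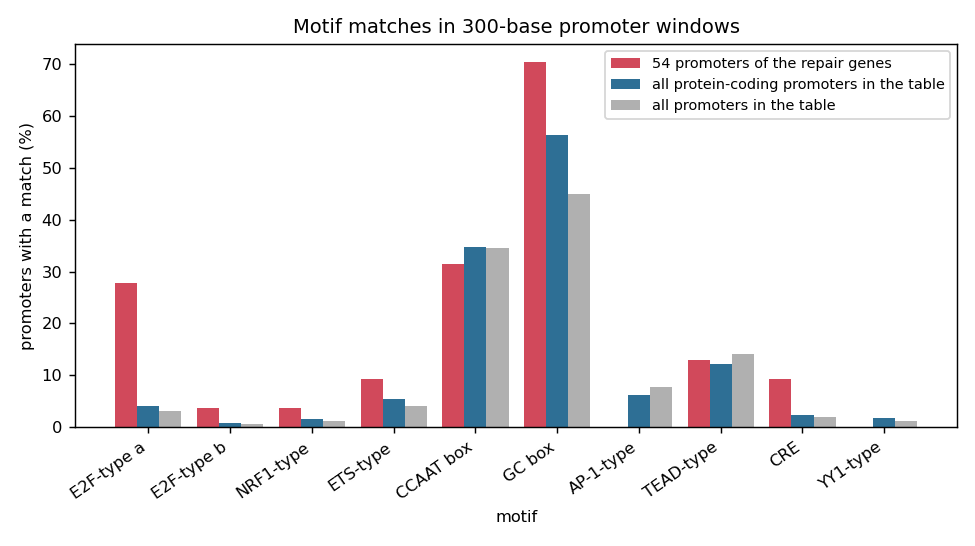
Share of 300-base promoter windows holding each of 10 motifs (vertical axis, percent), for the 54 windows of the repair genes, all protein-coding windows and all windows of the reference table. E2F-type a is the first E2F form described (27.8% against 3.98%) and E2F-type b the second; the AP-1-type and YY1-type bars of the repair genes are at 0.

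Several repair genes shared their start region with a neighbour transcribed the opposite way. A listed protein-coding start on the other strand, pointing away, lay within 250 bases of 9 of 37 genes (24.3%). This held for 8.22% of protein-coding genes and 13.1% of those with a promoter overlapped in all 6 libraries. Only listed starts were counted for these shares. An end of another protein-coding gene lay within 1 kb of the 5′ end in 35.1%, against 27.5% of genes called in all 6. With ends of long non-coding RNA genes added, the shares were 37.8% and 43.8%. FANCF is not among the 9, although the span of GAS2 has an end 179 bases from its 5′ end. The pairs were ERCC8 with NDUFAF2, XPC with LSM3, DDB1 with TKFC, SLX4 with DNASE1, BRCA1 with NBR1, BRCA2 with ZAR1L, PALB2 with DCTN5, PMS2 with AIMP2, and POLH with XPO5. In each pair 1 peak covered both starts in 6 of 6 libraries, so the accessibility measured there cannot be assigned to either gene alone. The bases between the starts are shown for 4 pairs, read 5′ to 3′ from the neighbour's start to that of the repair gene, with motif matches in capitals: an ETS-type match in BRCA2, a CCAAT box in PALB2, CCAAT boxes in ERCC8 and PMS2, and the cAMP response element between the CCAAT boxes in PMS2. GC boxes are left in lower case.
BRCA2 and ZAR1L (chr13:32315364-32315507, + strand): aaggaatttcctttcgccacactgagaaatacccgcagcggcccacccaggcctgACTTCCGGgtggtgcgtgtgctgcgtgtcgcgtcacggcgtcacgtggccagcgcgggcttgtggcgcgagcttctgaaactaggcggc
PALB2 and DCTN5 (chr16:23641311-23641465, - strand): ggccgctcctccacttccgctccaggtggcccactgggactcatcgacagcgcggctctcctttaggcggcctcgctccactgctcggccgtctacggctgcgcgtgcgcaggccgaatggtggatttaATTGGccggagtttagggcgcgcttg
ERCC8 and NDUFAF2 (chr5:60945071-60945204, - strand): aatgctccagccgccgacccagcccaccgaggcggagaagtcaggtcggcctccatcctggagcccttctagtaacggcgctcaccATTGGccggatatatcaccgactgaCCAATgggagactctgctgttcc
PMS2 and AIMP2 (chr7:6009107-6009271, - strand): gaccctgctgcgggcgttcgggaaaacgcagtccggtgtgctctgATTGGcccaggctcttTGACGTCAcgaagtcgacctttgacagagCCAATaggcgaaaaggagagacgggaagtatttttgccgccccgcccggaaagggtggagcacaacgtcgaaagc
The bases between the starts numbered 144, 155, 134 and 165.

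Every repair gene was accessible in every library. All 38 had a gene-end peak in all 6 libraries, against 58% of protein-coding genes. None was called in 1 group only, where 0.0848% of protein-coding genes were called in all silenced and no control libraries and 0.195% in all control and no silenced libraries. At 36 genes the strongest gene-end peak lay at the 5′ end in all 6 libraries. The exceptions were ERCC1, where it changed ends between libraries, and FANCI, whose strand was not in the table. In 34 genes the peak reached a false discovery rate of 1e-05 or less in every library, the exceptions being ERCC1, SLX4, XRCC2 and REV1. Of the 54 promoter windows 49 were overlapped by a peak in all 6 libraries, against 47.5% of protein-coding promoters, and 36 of 37 genes had at least 1 such window.

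To place each gene within its own library, the fold enrichment of its strongest gene-end peak was expressed as a percentile among protein-coding genes with such a peak, where 100 is the most enriched. The median over the 38 genes was 71.1, 69.3 and 71.2 in the silenced libraries and 68.2, 69.3 and 70.3 in the control libraries. The groups thus gave 70.5 ± 1.08 and 69.3 ± 1.05 (SD, n = 3 each), a difference of 1.23 that is close to the spread within either group, and their ranges overlapped. Averaged over the 6 libraries, 30 of 38 genes lay above the 50th percentile, against 58.9% of the genes called in all 6. The median of these averages was 70.0 for the repair genes and 57.5 for all such genes. The lists differ in length, so a shift in percentile describes rank within a list and is not by itself a change in accessibility.

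**Figure D2:**
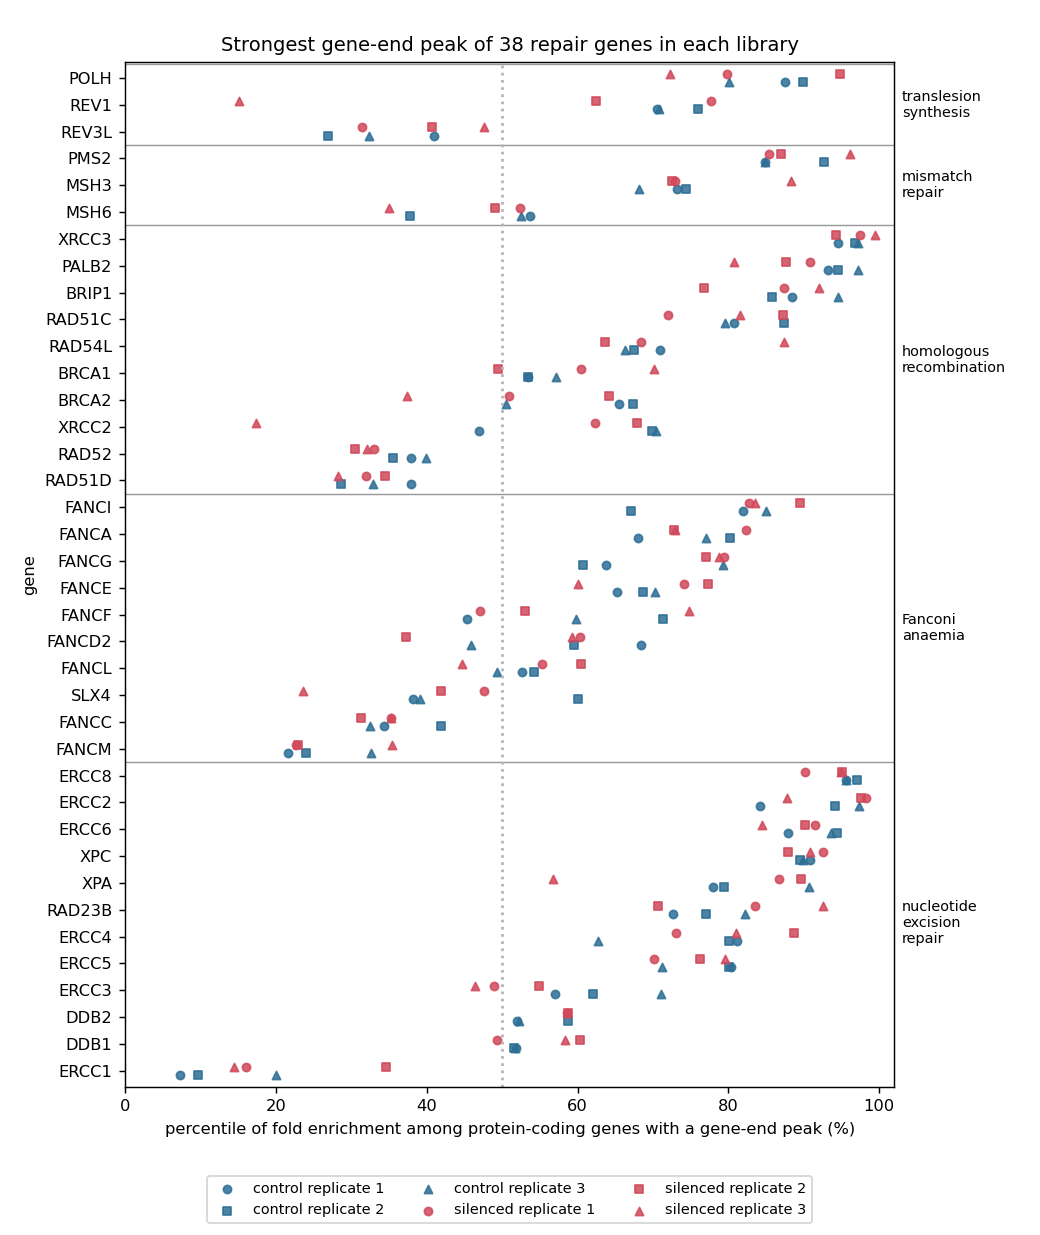
Percentile of fold enrichment (horizontal axis) of the strongest gene-end peak of each of the 38 genes, grouped by role, in each of the 6 libraries (red, silenced; blue, control; symbols, replicates). XRCC3, ERCC8, XPC, PMS2, ERCC6 and ERCC2 sit above 84 in every library and ERCC1 below 35 in every library. Silenced replicate 3 stands apart at REV1, XRCC2 and XPA.

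In nucleotide excision repair the median percentile was 80.2 ± 1.87 in silenced and 78.5 ± 1.61 in control libraries (12 genes). ERCC8, which with ERCC6 brings repair to stalled RNA polymerase, lay at 90.2, 95.1 and 94.97 in the silenced and 95.5, 97.0 and 95.5 in the control libraries. All 3 silenced values were below the control values, by a mean of 2.64 percentile points. ERCC2, a helicase of the TFIIH complex that opens the DNA around an adduct, lay at 98.3, 97.5 and 87.8 against 84.2, 94.1 and 97.3, and the groups overlapped. Averages over 6 libraries were 90.3 for ERCC6, 90.3 for XPC, which senses distorted DNA, 80.2 for XPA, which verifies the lesion, and 79.8 for RAD23B, the partner of XPC. The nuclease subunits ERCC4 and ERCC5 averaged 77.8 and 76.2. DDB1 and DDB2, the damage sensor that hands lesions to XPC, averaged 53.9 and 56.5.

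Of the genes whose groups did not overlap, ERCC3, the other helicase of TFIIH, had the largest mean difference. Its percentiles were 48.9, 54.9 and 46.4 in silenced and 57.0, 62.0 and 71.0 in control libraries, with heights of 23, 26 and 12 against 30, 30 and 35. The silenced values were all lower, with a mean difference of -13.3 (50.1 ± 4.36 against 63.4 ± 7.11, SD, n = 3 each). Without silenced replicate 3 the difference was -11.4, although leaving out a library cannot undo such a separation. At its gene-end region the difference in rank score was -0.37, which limma did not call (adjusted p = 0.963).

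ERCC1, which pairs with ERCC4 to make the incision on the 5′ side of an adduct, was the least enriched of the 38 genes by this measure. Its percentiles were 16.0, 34.6 and 14.5 in silenced and 7.31, 9.76 and 20.1 in control libraries. The groups overlapped. These values came from the outermost 5′ end in silenced replicate 2 and control replicates 1 and 3, and from the 3′ end in the other libraries, where the strongest peak was 20 fragments high in silenced replicate 1, 13 in silenced replicate 3 and 22 in control replicate 2. Ends of POLR1G and PPP1R13L lie 690 and 973 bases from that 3′ end. The accessibility measured there cannot be assigned to ERCC1 alone. At the outermost 5′ region (chr19:45450146-45451078) heights were 14, 20 and 7 against 10, 14 and 18. At a listed start 27.5 kb further in (region chr19:45423453-45424649) they were 53, 53 and 26 against 45, 53 and 43, and each library was higher there than at the outermost 5′ end.

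In the Fanconi anaemia pathway the median percentile was 58.1 ± 1.499 in silenced and 57.7 ± 2.95 in control libraries (10 genes). FANCI, which with FANCD2 forms the clamp that is loaded on cross-linked DNA, averaged 81.6, while FANCD2 averaged 55.1. Of the core ubiquitin ligase complex that modifies this pair, FANCA averaged 75.5, FANCG 73.2, FANCE 69.3, FANCF 58.6, FANCL (the catalytic subunit) 52.8 and FANCC 35.1. FANCM, the translocase that brings the core complex to DNA, was the lowest, at 22.7, 22.9 and 35.5 in silenced and 21.6, 24.1 and 32.6 in control libraries. Its groups overlapped. SLX4, the scaffold of the unhooking nucleases, averaged 41.7, with heights of 20, 18 and 6 against 15, 29 and 17. FANCG had the highest positive difference of all 38 genes, 10.5 points, from 79.4, 77.1 and 78.8 in silenced and 63.8, 60.7 and 79.3 in control libraries. Control replicate 3 lay above 2 of the silenced libraries, so the groups overlapped.

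In homologous recombination the median percentile was 69.0 ± 5.64 in silenced and 68.4 ± 0.254 in control libraries (10 genes). XRCC3, which acts in strand exchange, had the highest average of the 38 genes (96.6), at 97.4, 94.3 and 99.5 against 94.5, 96.7 and 97.2. Its heights of 123, 126 and 90 against 121, 138 and 133 were the highest of the 38 genes in every library, and silenced replicate 3 was the lowest of the 6. Other genes of strand exchange were spread out: RAD51C averaged 81.4, XRCC2 55.8 and RAD51D 32.4. RAD51D lay at 32.0, 34.5 and 28.2 in silenced and 37.97, 28.6 and 32.9 in control libraries, and the groups overlapped. BRIP1, a helicase that binds BRCA1, averaged 87.5, RAD54L, a translocase that aids strand exchange, 70.7, BRCA1 57.4 and BRCA2, which prepares single-stranded DNA for strand exchange, 56.0. The BRCA1 value was measured at its outer end, shared with NBR1, and not at its more enriched inner listed start, described below.

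PALB2, which joins BRCA1 to BRCA2, was one of the most enriched genes and was lower in every silenced library. Its percentiles were 90.9, 87.6 and 80.8 in silenced and 93.2, 94.5 and 97.2 in control libraries, with heights of 49, 60 and 26 against 51, 62 and 65. The mean difference was -8.53 points (86.4 ± 5.15 against 94.97 ± 2.04, SD, n = 3 each). This peak also covers the start of DCTN5, a dynactin subunit gene. RAD52, which anneals single strands, was lower in every silenced library at its outermost end. It lay there at 33.0, 30.5 and 32.1 against 37.9, 35.6 and 39.9, a difference of -5.95 points. At a taller listed start inside the gene the rank scores overlapped (1.29, 0.72 and 1.09 against 1.15, 1.02 and 1.27).

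Of the mismatch repair genes, PMS2 averaged 88.5, MSH3 74.9 and MSH6 46.7. MSH3 and MSH6 take part in recognising mismatched or looped bases, and PMS2 is part of the nuclease that nicks the strand to be repaired. The median of the 3 genes was 78.0 ± 8.999 in silenced and 71.9 ± 3.30 in control libraries. In translesion synthesis it was 62.6 ± 15.1 against 72.4 ± 3.06 (3 genes). POLH, the polymerase that copies across platinum adducts, averaged 84.1, REV1, the scaffold that recruits the others, 62.1, and REV3L, the catalytic subunit of polymerase zeta, 36.7. REV1 had the most negative difference of the 38 genes, -20.7 points, which came from 1 library. Its percentiles were 77.8, 62.4 and 15.2 in silenced and 70.5, 76.0 and 70.8 in control libraries, and its heights 39, 39 and 6 against 45, 57 and 44.

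Over the 38 genes, 0 were higher in all silenced than in all control libraries, against 4.96% of the genes called in all 6. In the other direction 4 (10.5%) were lower in all silenced libraries, against 5.14% of the genes called in all 6. They were ERCC3, PALB2, ERCC8 and, at its outer end, RAD52. These shares were not tested. In an alternative chosen after seeing the data, with the same peaks ranked by height, 2 genes were higher in all silenced libraries (ERCC1 and RAD54L, background 4.71%) and 3 were lower (ERCC3, FANCC and REV1, background 5.28%). ERCC3 was thus lower by both measures, while the groups overlapped in height percentile at PALB2, RAD52 and ERCC8. At ERCC1 the peak came from different gene ends in different libraries, so its percentiles do not follow 1 site. At its outermost 5′ region alone the heights, 14, 20 and 7 against 10, 14 and 18, overlapped. The difference was positive in 19 genes and negative in 19, with a median of -0.0520 points, against -0.236 for all genes called in all 6. Without silenced replicate 3, 3 genes (7.89%) were higher (FANCL, FANCE and ERCC2, background 11.6%) and the same 4 (10.5%) were lower (background 9.01%), both near the background. Genes already separated stay so when a library is left out, so the return of these 4 was fixed in advance. The looser rule also raises the background. The SD between silenced libraries had a median of 7.77 points over the repair genes and 7.03 over all genes, and between control libraries 4.88 and 5.56.

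The E2F-type matches and the head-to-head starts were set beside these percentiles. The 12 genes with an E2F-type match had a median average percentile of 55.5 (range 34.8 to 96.6), the lowest being RAD52, measured at its outer end 41.4 kb from the start that holds its match, and the 25 without one 74.9 (17.0 to 94.7). The silenced minus control difference was positive in 6 of the 12 and in 12 of the 25. The 9 genes with a head-to-head start had a median of 84.1 (41.7 to 94.7), and the 28 without one 65.7 (17.0 to 96.6). The ranges overlapped in both splits, and no test was made of either.

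Peaks were next merged across the 6 libraries into 507440 regions, so that the same place could be followed in each. The repair genes held 527 of them, of which 67 (12.7%) were called in all 6 libraries, against 7.35% of all regions. In 1 library only, 376 (71.3%) were called, near the 74.1% of all regions. Of the 50 regions at gene ends 41 were called in all 6, and of the 477 other regions in the gene spans 26 were. The same split was not made over all genes.

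Within regions called in all 6 libraries, ranks of fold enrichment were turned into normal scores and compared with limma. No region was called at an adjusted p under 0.05, neither among the 67 of the repair genes nor among all 37284 (0%), and the smallest adjusted p was 0.963 by Benjamini-Hochberg over all regions. At an unadjusted p under 0.05, 1 of the 67 regions was higher in silenced cells (the outermost 5′ end of ERCC1, background 1.98%). Another 1 was lower (PALB2, background 2.7%). Scores did not overlap between groups in 3 regions that were higher (background 5.39%) and 3 that were lower (background 4.78%). The higher ones were the outermost 5′ end of ERCC1, the 3′ end of XPC and the body of DDB2. The lower ones were at ERCC3, PALB2 and the outer end of RAD52. At the inner listed start of RAD52 the scores overlapped, with a difference of -0.11. In simulated libraries of this number, shifts of 2 score units were called in 143 of 200 regions and shifts of 1 unit in 0 of 200. The largest difference in either direction among the 67 regions was 1.07.

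Among gene-end regions the outermost 5′ end of ERCC1 had the most positive difference (1.07 score units). The 3′ end of XPC (0.48) and FANCG (0.32) came next. The most negative were REV1 (-0.74), XRCC2 (-0.50) and PALB2 (-0.45). At PALB2 the scores were 1.78, 1.61 and 1.42 in silenced and 1.90, 2.01 and 2.252 in control libraries, without overlap. At the outermost 5′ end of ERCC1 they were -0.50, -0.05 and -0.75 against -1.98, -1.77 and -0.76. This was a low region of that gene. At its taller inner listed start the difference was 0.04, at its 3′ end -0.02 and at its other body region 0.19. The groups overlapped at each of these. At XRCC2 the heights were 28, 33 and 5 against 19, 35 and 31, and the difference turned to 0.10 without silenced replicate 3. At REV1, too, silenced replicate 3 was the only silenced library with a score below 0 (1.30, 0.85 and -1.03 against 1.05, 1.23 and 1.06). Without that library the REV1 difference was -0.04. Ranked by height in place of fold enrichment, the difference at the outermost 5′ end of ERCC1 was 0.17 and that of PALB2 -0.12. Ranked by p-value PALB2 gave -0.18. At the 3′ end of XPC (chr3:14144353-14144998) heights were 22, 27 and 14 against 17, 25 and 19, overlapping, although the scores did not.

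**Figure D3:**
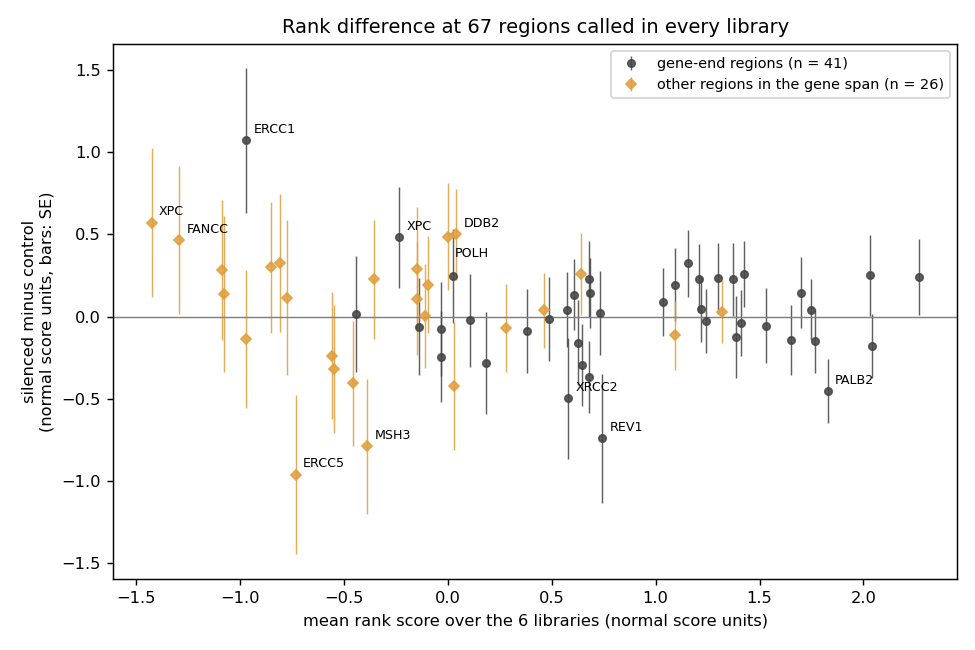
Silenced minus control difference in rank score (vertical axis, normal score units, bars are SE from limma) against the mean score of the 6 libraries (horizontal axis), for 41 gene-end and 26 other regions called in every library. Differences spread more widely among low-scoring regions, and genes beyond 0.45 in either direction are named.

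Some genes were open at starts well inside the gene span. Of the 26 regions inside gene bodies that were called in all 6 libraries, 3 lay within 1 kb of a listed start, at BRCA1, ERCC1 and RAD52, and by median height they were the tallest of the 26. At BRCA1 the inner region (chr17:43124975-43125749), 45.0 kb into the span, had heights of 67, 75 and 39 in silenced and 74, 88 and 81 in control libraries. At the outer end, shared with NBR1, the region over the start had 78, 71 and 46 against 55, 77 and 65. The heights of the inner and outer regions overlapped. The inner region also overlaps the span of NBR2. Its rank scores were 1.15, 1.40 and 1.45 against 1.35, 1.32 and 1.24. In each library this was above the outer region over the start, at 0.82, 0.48 and 1.08 against 0.39, 0.63 and 0.68. In control replicate 1 the strongest gene-end peak by fold enrichment, which gave the BRCA1 percentile, was a different one. It was 61 high, with its midpoint 816 bases from the listed start. At RAD52 the inner region (chr12:949070-950336) had 99, 92 and 48 against 105, 113 and 112, each above the 33, 39 and 13 against 36, 37 and 39 of the outer end. In all 3 genes silenced replicate 3 was the lowest of the 6 libraries at the inner start, as it was in the lowest implied background.

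FANCC had the most shared regions inside its body, 4, none at a listed start. The tallest (chr9:95312962-95313510), 4.47 kb from the outer end, had heights of 41, 51 and 31 against 42, 44 and 58. These were above the 30, 34 and 14 of its gene-end peak in each silenced library, and above the 31 and 34 of control replicates 1 and 3, but not the 46 of control replicate 2. The other body regions were low: the median over the 26 was a height of 10.75, and 12 were below 10.

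**Figure D4:**
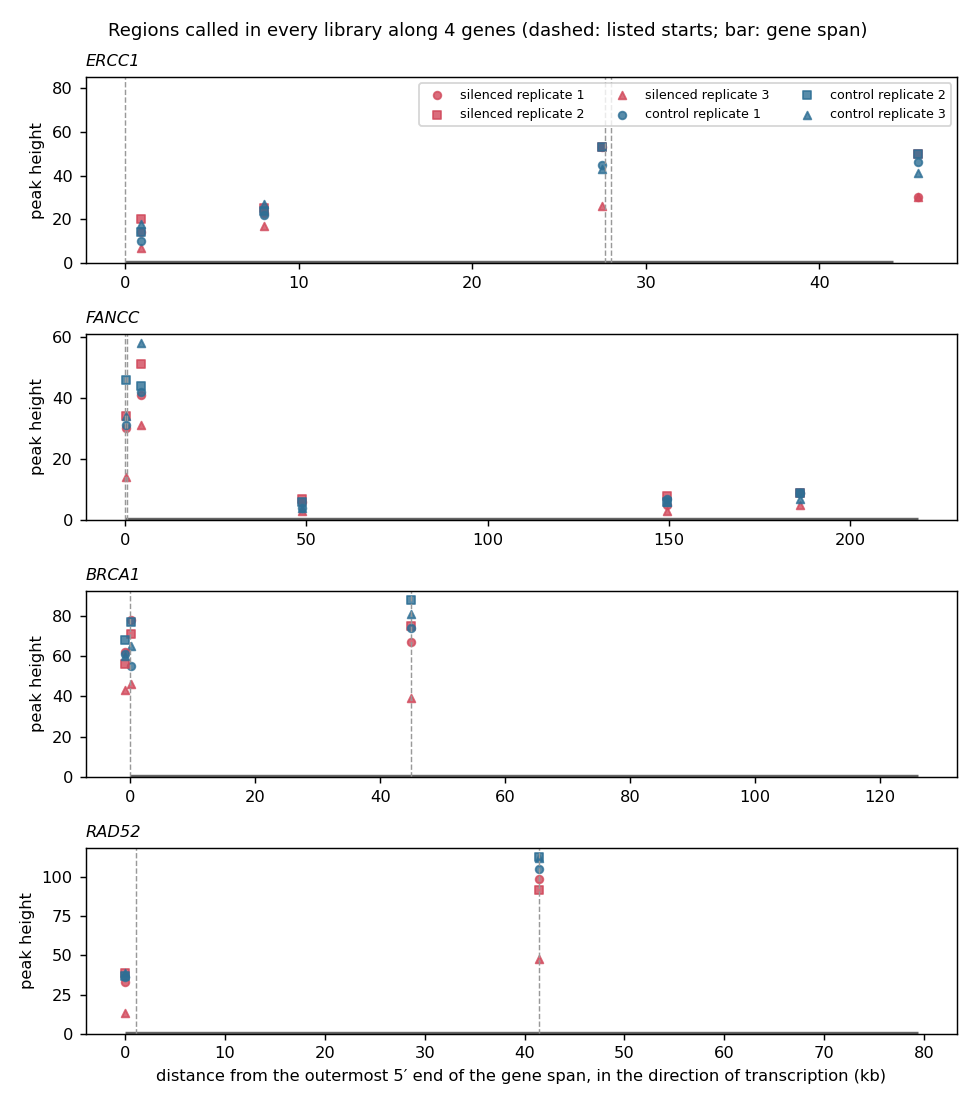
Peak height (vertical axis, fragments) of every region called in all 6 libraries along ERCC1, FANCC, BRCA1 and RAD52, by distance from the outermost 5′ end (horizontal axis, kb); dashed lines are listed starts and the bar is the gene span. In ERCC1 and RAD52 the inner listed start is higher than the outer end in every library.

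Regions called in 1 group only were few and shallow. Of the 527 regions, 2 were called in all silenced and no control libraries (background 0.13%), in the spans of REV3L (chr6:111332950-111333514, heights 3, 4 and 3) and BRCA1 (chr17:43095201-43095624, heights 3, 4 and 4). In the other direction 1 was called in all control and no silenced libraries (background 0.2%), in the span of RAD51C (chr17:58703621-58704026, heights 5, 6 and 3). All 3 lay away from the gene ends. With a height of at least 4 the counts were 0 in silenced and 2 in control libraries only, and with lists of equal size 0 and 1. Counted over whole gene spans, the 38 genes were overlapped by 199, 186 and 148 peaks in silenced and 179, 108 and 190 in control libraries, 178 ± 26.5 against 159 ± 44.5 (SD, n = 3 each). The low count was in control replicate 2, which has the shortest list, and without it the difference turned from 18.7 to -6.83. Per 100 kb these counts were 8.13, 7.59 and 6.04 against 7.31, 4.41 and 7.76, beside 6.81, 7.04 and 5.24 against 7.15, 4.31 and 6.96 over all protein-coding genes, so the same libraries were low in both.

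The other genes of these pathways were mostly open as well. Of 52 further repair genes 44 had a gene-end peak in all 6 libraries (84.6%, against the 58% of protein-coding genes given above), 5 in none (UVSSA, GTF2H2, SLX1A, MRE11 and POLK) and 3 in some (RPA3, MAD2L2 and RBBP8). GTF2H2 and SLX1A have near-identical copies in the genome, so reads there may have been split or dropped. Each group had 45 ± 1 such genes per library (SD, n = 3), and none was called in 1 group only. Among the 44, 3 (6.82%) were higher and 2 (4.55%) lower in all silenced libraries, near the 4.96% and 5.14% of all genes, and their median average percentile was 75.5.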

How the data were processed

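ATAC-seq libraries came from 10000 to 50000 cells each, per the labels' protocols. Per the submitters' processing notes, the tools used included Trimmomatic 0.36, Bowtie2 2.2.6, Picard 2.8.2, MACS2 2.1.1 and bedtools 2.25.0, with build GRCh38; the parameters are not given in the sources used here. Each library's deposited peak list gives, per the file headers, fold enrichment (a ratio to local background), a p-value and false discovery rate, and the height, a coverage signal. Whole-library read totals are not in the lists, so heights are not scaled for depth. The 38 genes and the further lists were chosen with earlier results of these data known.

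Gene spans were taken from RefSeq, GRCh38.p14. Each gene was represented by its strongest peak with a midpoint within 1 kb of either end. Regions were merged at an overlap of 1 bp, and normal scores of ranks were fitted with limma 3.58.1 in R 4.3.3 (trend, Benjamini-Hochberg over all regions), after the fit was tested on simulated data. Group means have n = 3, and an exact permutation test of 3 against 3 cannot go below 0.1, so counts carry no test. P-values measure only the spread between these libraries, which may be technical. Values in every library are given for the 4 genes with the highest and lowest mean percentile, for genes whose groups do not overlap, for the 3 gene-end regions with the largest rank difference in each direction, and for genes with a region in 1 group only; values for other genes were chosen after they were seen. Alternatives covered the FDR limit, list length, height, distance, gene end, merging, ranked value, replicate block and each library left out. The replicate numbers did not pair the libraries.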

Additional observations from a re-analysis of the deposited data

How the results depend on the processing

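With a false discovery rate of at most 1e-05, the silenced minus control difference was -1 for repair genes with a gene-end peak (0 with all peaks; 34 to 38 genes per library), -1.67 for the further repair genes, and -4.67 for peaks over gene spans (18.7 with all peaks), and the regions called in 1 group only fell from 3 to 0. With a height of at least 4 the span difference was -5. With lists of equal size 1 region was called in 1 group only. Within 500 bp the gene-end difference was 0.333, and within 2 kb the difference in median percentile was 0.112, against 1.23; it was 0.262 at the FDR limit, 0.473 at the height limit, 1.86 within 500 bp and 0.703 to 1.85 with 1 library left out. Leaving out 1 library at a time gave 4 to 12 regions in 1 group only. Dropping silenced replicate 3 gave 12, control replicate 2 gave 9 and silenced replicate 1 gave 7. Dropping silenced replicate 2 or control replicate 1 gave 5. Peaks were merged anew each time, so this count could fall where the left-out peak had joined the others. A smaller group otherwise relaxes the rule, which lets the count stay at 3 or rise. The rise therefore does not show dependence on any 1 library, and no background share is given for the relaxed rule. The span difference without control replicate 2 was -6.83. Ranked by height, an alternative chosen after seeing the data, the genes with all silenced percentiles above the controls went from 0 to 2 and those below from 4 to 3. The XRCC2 rank difference was -0.83 to 0.10, the latter without silenced replicate 3. Apart from the relaxed rule for regions in 1 group only, the cause of these changes was not tested. The other named regions kept their direction with the block, ranked by height or p-value and with each library left out. Limma called 0 regions in these fits, with merged windows and at the FDR limit. Libraries with the same replicate number did not deviate together (correlations -0.00196, 0.00238 and -0.00829). With the replicate block the values stayed at 18.7 peaks, 1.23 points, 0 genes and 0 further genes, and limma called 0 regions, with 1770 at an unadjusted p under 0.05. The low coverage of silenced replicate 3 limits what can be seen at weak peaks.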
